A study of Saccharomyces cerevisiae with 6 samples.

Results

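The 10 genes described here, CDC42, CDC24, BEM1, GIC1, GIC2, BOI1, BOI2, BNI1, BNR1 and SPA2, encode part of the machinery that sets the axis of growth in budding yeast. They were taken by gene symbol from the platform annotation, 1 probe set for each, out of 5350 genes tested. The list was drawn up with earlier results of these data known. All 10 passed the filter on low values, and by the suffixes of their names none of their probe sets is of the kind that shares probes between genes. Expression was measured in Saccharomyces cerevisiae strain BY4741 carrying a mammalian transgene under a galactose-inducible promoter. The PI3K group expressed p110α-CAAX, the kinase subunit that PIK3CA encodes, with a membrane-targeting motif. The KD group expressed the same fusion with the kinase-dead substitution K802R. Both groups were grown in synthetic raffinose medium and received galactose to 2% for 4 h at the same temperature. Levels of the transgene's RNA and protein in the groups were not analysed here. Each group holds 3 biological replicates, with 1 Affymetrix array for each, and the labels do not state whether these came from separate transformants. Cells without the transgene and cells before galactose were not analysed here.

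Cdc42 is a small GTPase that collects at a single patch of the plasma membrane and there directs where the bud emerges. Cdc24 is its guanine nucleotide exchange factor, and the scaffold Bem1 holds Cdc24 beside GTP-bound Cdc42 and its effector kinases. Gic1 and Gic2 are related effectors that bind GTP-bound Cdc42, and a basic stretch in each also binds phosphoinositides of the plasma membrane, the lipids on which a phosphoinositide 3-kinase acts. Boi1 and Boi2 are related scaffolds that bind Bem1 and carry a lipid-binding pleckstrin homology domain. Bni1 and Bnr1 are the yeast formins, which nucleate the actin cables along which secretory vesicles travel, Bni1 mainly at the bud tip and Bnr1 at the bud neck. Spa2 is the core scaffold of the polarisome, which gathers Bni1 and its activators at sites of growth.

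All values are log2 GCRMA summaries of a probe set, as the authors deposited them, and levels are compared between arrays for the same probe set, never between genes. Array medians lay between 9.49 and 9.54, and Pearson correlations between arrays ranged from 0.965 to 0.995. The largest component of the variation within groups, 70.4% of it, parted the arrays of each group. Group means were taken out first, so that any such component crosses the groups. Side A, as it is called here, holds PI3K 1 and 3 with KD 3, and side B holds PI3K 2 with KD 1 and 2. The labels name no batch that would match these sides, and KD 3 had the largest loading. The markers settle only in part whether the mating type of the cells matched the strain. All 7 markers of a cells read at mean log2 values of at least 8.501 in PI3K and 8.11 in KD. Of the 4 alpha-cell markers and 4 markers of diploid or meiotic cells none lay below a log2 value of 4 on all arrays. STE3, the a-factor receptor of alpha cells, averaged 7.83 in PI3K and 6.98 in KD. The other 3 alpha-cell markers, which include SAG1, were lower in PI3K, with log2 differences from -0.40 to -0.087. No alpha-cell marker passed in limma. SAG1 averaged 8.35 in PI3K and 8.44 in KD. In both groups the remaining alpha-cell markers, MF(ALPHA)1 and MF(ALPHA)2, averaged nearer to the log2 value of 4 than STE3 and SAG1 did. Because levels are not comparable between genes, these values do not show whether alpha cells were present. The summed alpha markers ran from 9.23 to 9.43 in PI3K and from 9.02 to 9.21 in KD on the log2 scale, and their part in the results below was not tested. Summed markers of diploid or meiotic cells ran from 8.81 to 9.01 in PI3K and from 8.38 to 9.05 in KD.

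No member passed an adjusted p of 0.05 in limma, where 0.243% of all genes tested did (13 of 5350). The adjusted p-values of the members lay between 0.209 and 0.993. GIC2 was the member furthest up in PI3K and BOI2 the member furthest down. Of the 10 genes, 4 were higher and 6 lower in PI3K, where 49.7% of all genes were higher, with a median log2 difference of -0.065, against -0.00180 over all genes. With array weights, an alternative setting, 6 members passed, but so did 52.5% of all genes. With trend and robust variances no member passed, where 0.28% of all genes did. At an unadjusted p under 0.05 in limma there were 2 members, GIC2 and BOI2, where 14.5% of all genes reached that level, 7.94% with higher and 6.58% with lower values in PI3K. Groups that do not overlap were seen for 4 members, against 20.7% of all genes. Only GIC2 was higher throughout, against 10.2% of all genes, and BOI1, BOI2 and BNI1 were lower throughout, against 10.5%. The replicates are biological per the labels. The limma p-values set each group difference against the variation within groups of these 6 arrays, moderated by that of all genes.

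**Figure D1:**
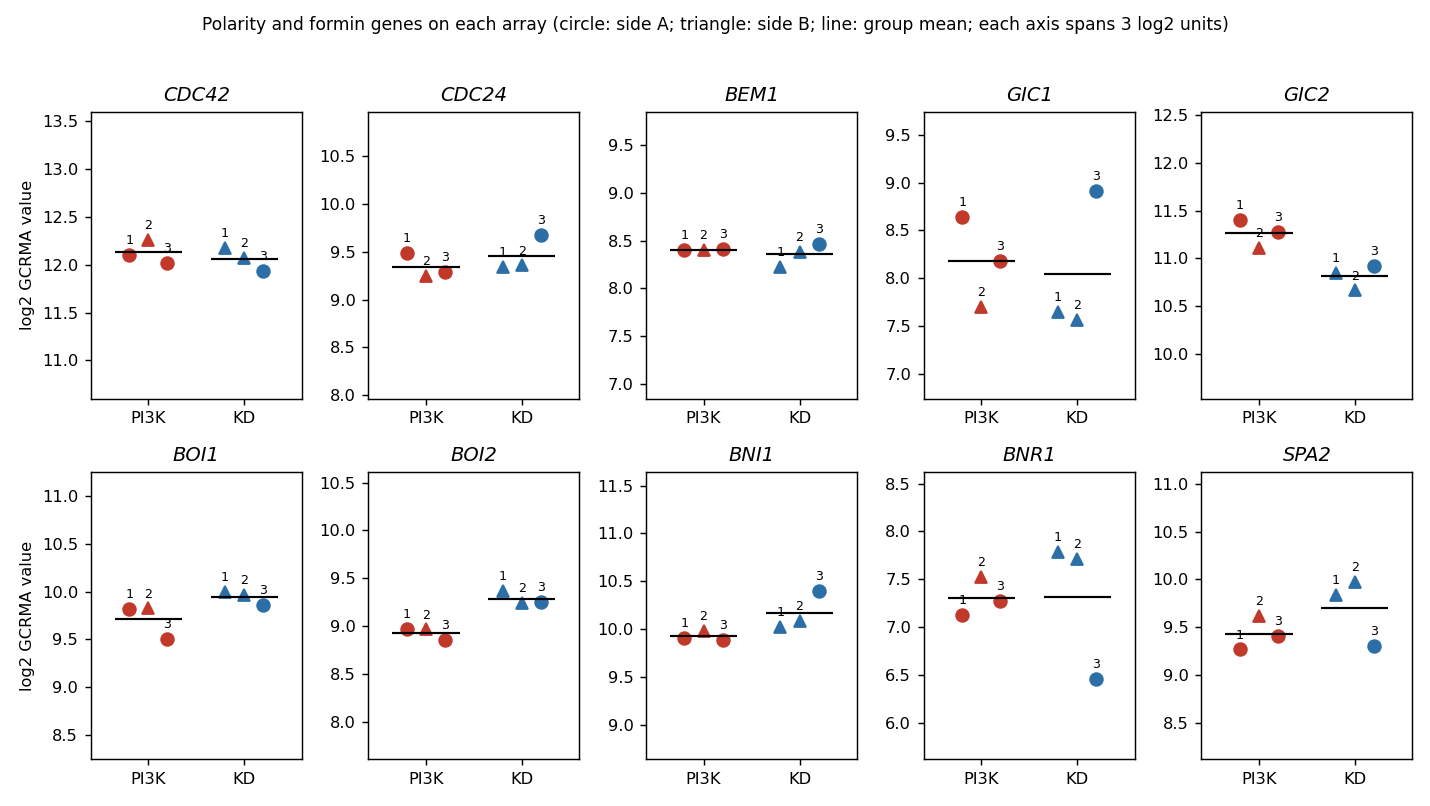
Log2 GCRMA value of each of the 10 genes on each array, PI3K in red and KD in blue, numbered by replicate, with circles for side A, triangles for side B and a line at each group mean; every vertical axis spans the same range of 3 log2 units. GIC2 sits above KD on all 3 PI3K arrays, BOI2 sits below KD on all 3, and KD 3 lies far from KD 1 and KD 2 for GIC1 and BNR1.

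The 3 genes of the Cdc42 module itself differed little. CDC42 read 12.11, 12.26 and 12.02 on the PI3K arrays, against 12.18, 12.07 and 11.93 on the KD arrays. The groups overlapped, and the log2 difference was 0.07 (SE 0.12, limma adjusted p = 0.874), with a 95% interval from -0.22 to 0.36. In linear terms the interval reaches up to 1.28-fold. CDC24, the exchange factor, read 9.49, 9.24 and 9.29 in PI3K, against 9.34, 9.36 and 9.68 in KD. Its groups overlapped as well, KD 3 was the highest of the 6 arrays, and the log2 difference was -0.12 (SE 0.14, limma adjusted p = 0.781). Without KD 3 the CDC24 difference was -0.00904 and that of CDC42 was 0.00397.

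BEM1, the scaffold of the module, had the smallest spread of the members over the 6 arrays (SD 0.083). Its PI3K arrays read 8.404, 8.405 and 8.410, against 8.22, 8.38 and 8.47 on the KD arrays. The PI3K values lay inside the range of the KD values, and the log2 difference was 0.05 (SE 0.11, limma adjusted p = 0.904, 95% interval from -0.21 to 0.31). At its standard error a log2 difference of 0.85 would have been needed for an adjusted p of 0.05, and for CDC42 one of 0.95.

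Of the GIC effectors, GIC2 was the one member to read higher on all 3 PI3K arrays than on any KD array. It read 11.40, 11.11 and 11.28 on the PI3K arrays, against 10.85, 10.66 and 10.92 on the KD arrays. The lowest PI3K value, on PI3K 2, stood above the highest KD value, on KD 3, by less than the range of either group. The means were 11.26 ± 0.15 in PI3K and 10.81 ± 0.13 in KD (SD, n = 3 each), a 1.37-fold difference with a 95% interval from 1.11-fold to 1.69-fold. On the log2 scale this was 0.45 (SE 0.13, limma adjusted p = 0.209). GIC2 is transcribed mainly around bud emergence. In a mixed culture more cells at a given stage and more RNA per cell cannot be told apart, for GIC2 or the other members. A log2 difference at least this large in either direction was found for 9.38% of all genes. At the standard error of GIC2 a log2 difference of 1.00 would have been needed to pass. With any single array left out the difference stayed between 0.38 and 0.53. The unadjusted limma p was under 0.05 in all 6 fits and the adjusted p above 0.05 in each. These fits share arrays and are not independent. From 439 (without PI3K 1) to 1296 (without KD 3) of 5350 genes reached that unadjusted p in a fit. The share of all genes reaching it in all 6 was not counted.

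GIC1, the paralog, had overlapping groups. It read 8.64, 7.70 and 8.18 in PI3K, against 7.65, 7.57 and 8.91 in KD. KD 3 was the highest of the 6 arrays and KD 2 the lowest, so that the KD values enclosed those of PI3K. The log2 difference was 0.13 (SE 0.40, limma adjusted p = 0.928), with a 95% interval from -0.81 to 1.08. The residual SD of GIC1, 0.63 log2 units, was higher than that of 98.1% of all genes tested, and that of GIC2, 0.14, lay at the 29.0th percentile. Its value was decided by single arrays: the difference was 0.57 without KD 3 (limma adjusted p = 0.255), -0.10 without PI3K 1, -0.06 without KD 1 and -0.11 without KD 2.

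The responses of GIC2 and GIC1 were compared within arrays, as the log2 value of GIC2 minus that of GIC1. This quantity was 2.76, 3.41 and 3.10 on the PI3K arrays, against 3.20, 3.10 and 2.01 on the KD arrays. The groups overlapped, and KD 3 alone stood below the range of the other 5 arrays. The PI3K mean exceeded the KD mean by 0.32 (SE 0.42, 95% interval from -0.86 to 1.495), with a two-sided exact permutation p of 0.7 over 20 assignments and of 1 after adjustment over 3 pairs. Since 3 arrays against 3 cannot give less than 0.1, the intervals carry more than the p. The interval covers both no difference between the paralogs and one of more than 1 log2 unit. Without KD 3 the direction turned, to -0.062. A difference in response between GIC2 and GIC1 was therefore not shown, although GIC2 had separate groups and GIC1 did not.

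**Figure D2:**
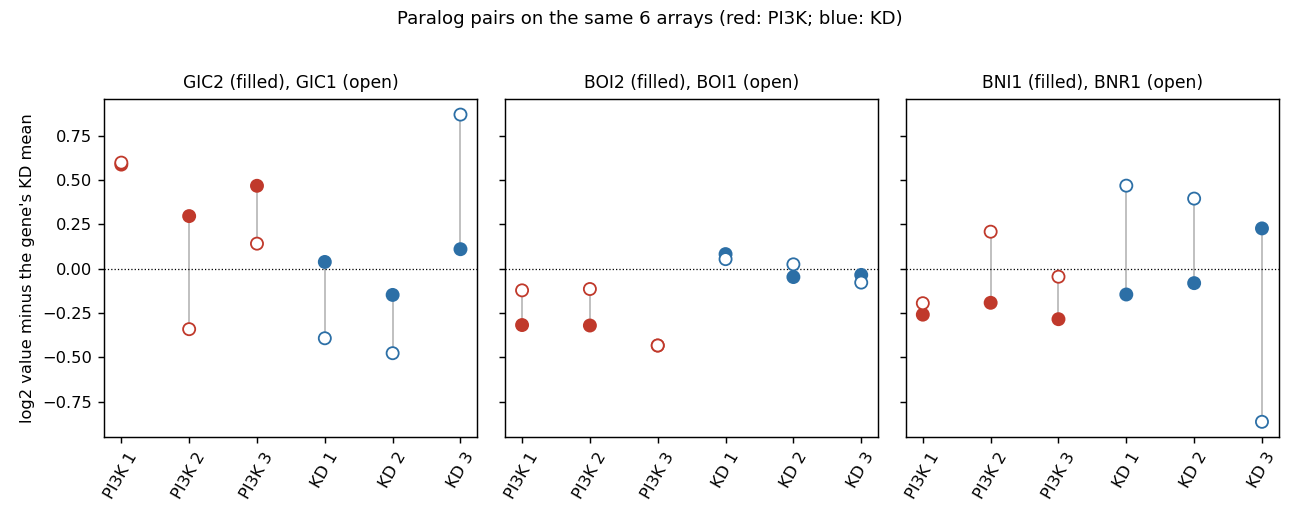
Log2 value minus the gene's KD mean for both genes of each pair on the 6 arrays, PI3K in red and KD in blue, with a grey line joining the genes of a pair on an array. GIC2 is above 0 on all 3 PI3K arrays while GIC1 is above 0 on PI3K 1, PI3K 3 and KD 3, BOI2 and BOI1 keep close together, and BNR1 drops away from BNI1 on KD 3.

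How alike the GIC profiles were was measured as the root mean square distance between log2 values centred on each gene's mean over the 6 arrays. GIC1 lay 0.45 log2 units from GIC2, which put it at rank 4555 of 5349 genes by nearness to GIC2, where the median gene lay at 0.33. Measured from GIC1, whose values spread more, GIC2 was at rank 1096 of 5349 and the median gene lay at 0.57, so the distance does not set the GIC genes apart as unlike. The genes nearest to GIC2 were YTP1, YPK1 and NTG2, at distances of 0.0481 to 0.0525, and since nearness chose them, their values below are a description. YPK1, a protein kinase activated through the TORC2 complex at the plasma membrane, read 10.77, 10.63 and 10.69 in PI3K, against 10.28, 10.13 and 10.35 in KD. That is a log2 difference of 0.45, near that of GIC2 by the choice. YTP1 differed by 0.47 and NTG2, a DNA glycosylase gene, by 0.40 on the log2 scale. Nearest to GIC1 were PTC6, a phosphatase gene, CIN5, a transcription factor gene, and ELA1, at 0.07 to 0.12 log2 units. The choice fixes that these 3 share the high value on KD 3: CIN5 read 7.11, 6.15 and 6.63 in PI3K, against 6.28, 6.18 and 7.58 in KD. Their log2 differences lay between -0.05 and 0.17 and their groups overlapped.

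Both BOI scaffold genes were lower on every PI3K array than on any KD array, and neither passed. BOI2 read 8.97, 8.96 and 8.85 in PI3K, against 9.37, 9.24 and 9.25 in KD. The gap between the groups, from PI3K 1 up to KD 2, was wider than the whole range of either group. The means were 8.93 ± 0.07 in PI3K and 9.29 ± 0.07 in KD (SD, n = 3 each). PI3K was at 0.781 of the KD level in linear terms, a log2 difference of -0.36 (SE 0.11, limma adjusted p = 0.216, 95% interval from -0.61 to -0.11). A log2 difference of 0.81 would have been needed to pass at this standard error, the lowest such size among the members. Leaving out single arrays gave values from -0.38 to -0.32, with an unadjusted limma p under 0.05 in all 6 fits. As for GIC2, these fits share arrays and are not independent.

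BOI1 read 9.82, 9.82 and 9.51 in PI3K, against 9.99, 9.96 and 9.86 in KD. PI3K 3 was the lowest array, and the other two PI3K values lay just under KD 3. The log2 difference was -0.22 (SE 0.13, limma adjusted p = 0.501) with a 95% interval from -0.53 to 0.08, and it was -0.12 without PI3K 3. BOI2 minus BOI1 was -0.85, -0.86 and -0.65 in PI3K, against -0.62, -0.72 and -0.61 in KD. The difference between the groups was -0.13 (SE 0.08, 95% interval from -0.34 to 0.08; two-sided exact permutation p = 0.2, adjusted over 3 pairs 0.6). Among the 10 members BOI1 and BOI2 were each other's nearest profile, at 0.10 log2 units.

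Neither formin gene passed. BNI1, the formin of the bud tip, read 9.91, 9.98 and 9.89 in PI3K, against 10.02, 10.09 and 10.40 in KD. All PI3K arrays were below all KD arrays, by a narrow margin between PI3K 2 and KD 1. The log2 difference was -0.25 (SE 0.13, limma adjusted p = 0.463, 95% interval from -0.56 to 0.07), and without KD 3, the highest array, it was -0.13. BNR1, the formin of the bud neck, read 7.12, 7.53 and 7.27 in PI3K, against 7.79, 7.71 and 6.45 in KD. KD 1 and KD 2 were above all PI3K arrays and KD 3 below all of them, which left a log2 difference of -0.01 (SE 0.35, limma adjusted p = 0.993, 95% interval from -0.84 to 0.82). Without KD 3 the BNR1 difference was -0.44 (limma adjusted p = 0.147), without PI3K 1 it was 0.08, without PI3K 3 it was 0.00697, without KD 1 it was 0.22 and without KD 2 it was 0.19.

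BNI1 minus BNR1 was 2.79, 2.45 and 2.61 in PI3K, against 2.24, 2.38 and 3.94 in KD. KD 3 lay above and the other two KD arrays below the range of PI3K. The group difference was -0.23 (SE 0.56, 95% interval from -1.78 to 1.31; two-sided exact permutation p = 1, adjusted over 3 pairs 1), and it turned to 0.31 without KD 3. The data thus give no settled direction for one formin against the other.

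SPA2, the polarisome scaffold, read 9.27, 9.62 and 9.41 in PI3K, against 9.83, 9.98 and 9.30 in KD. KD 1 and KD 2 lay above all PI3K arrays and KD 3 lay near the low end of PI3K. The log2 difference was -0.27 (SE 0.20, limma adjusted p = 0.608, 95% interval from -0.74 to 0.20), and without KD 3 it was -0.47 (limma adjusted p = 0.124). KD 3 was the array farthest from the median of the 6 for CDC24, GIC1, BNI1 and BNR1, which is 4 of the 10 members.

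**Figure D3:**
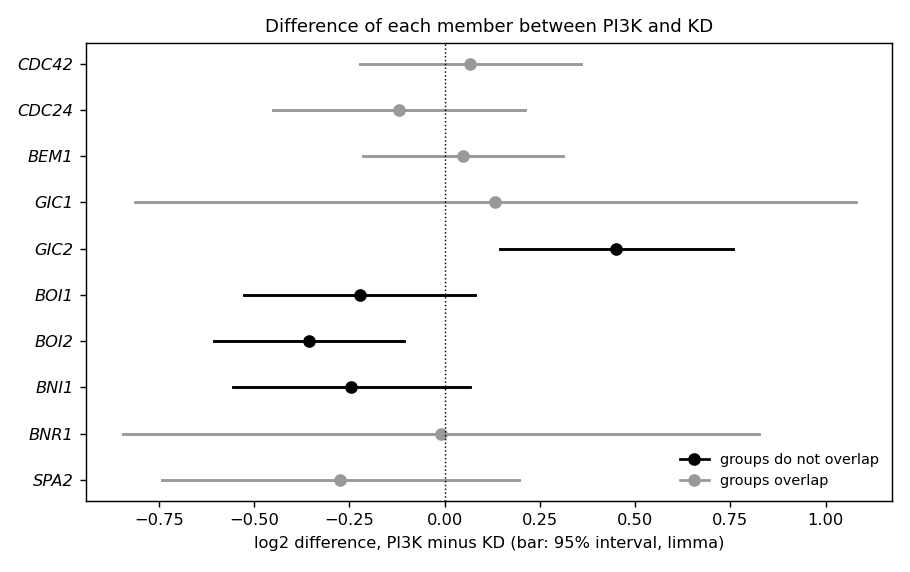
Log2 difference between PI3K and KD for each member, with its 95% interval from limma; black marks genes whose groups do not overlap and grey those whose groups overlap. The intervals of GIC2 (0.14 to 0.76) and BOI2 (-0.61 to -0.11) exclude 0, and those of GIC1 and BNR1 are the widest.

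Because the sides of the arrays cross the groups, each difference was also taken within a side, where it rests on a single KD array (side A) or a single PI3K array (side B). GIC2 was higher in PI3K on both, by 0.42 within side A and 0.35 within side B. BOI2 was lower on both, at -0.34 within each, and BOI1 stood at -0.20 and -0.15. BNI1 was at -0.50 within side A and -0.08 within side B, CDC24 at -0.29 and -0.10, and CDC42 at 0.13 and 0.14. The other four changed sign between sides: GIC1 was at -0.50 and 0.09, BNR1 at 0.74 and -0.22, SPA2 at 0.03 and -0.29, and BEM1 at -0.06 and 0.10. The same sign on both sides was thus seen for 6 of 10 members, near the 61.6% of all genes. The difference between sides was larger than that between PI3K and KD for 6 of 10 members, against 60.7% of all genes. For GIC1 side A exceeded side B by 1.01 log2 units, and for BNR1 side A was lower by -0.81. GIC2 minus GIC1 stood at 0.92 within A and 0.26 within B, BOI2 minus BOI1 -0.14 and -0.18, and BNI1 minus BNR1 -1.24 and 0.14. With the side as a covariate, no member passed, where 3.46% of all genes did. GIC2 then had a log2 difference of 0.38 (limma adjusted p = 0.0771) and BOI2 one of -0.34 (limma adjusted p = 0.0889). The sides were found from the same values, so these p-values are too small by an unknown amount.

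**Figure D4:**
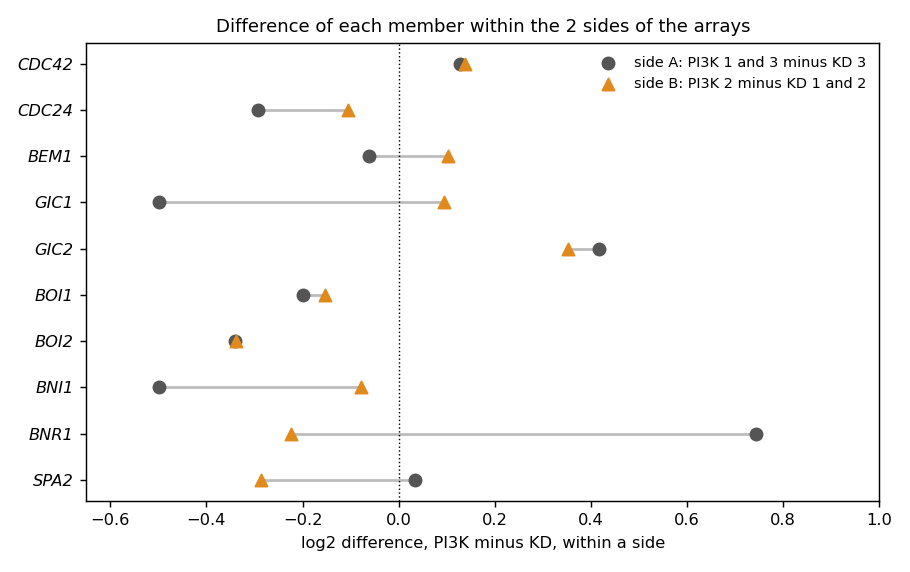
Log2 difference between PI3K and KD for each member within side A (circles, PI3K 1 and PI3K 3 minus KD 3) and within side B (triangles, PI3K 2 minus KD 1 and KD 2), each resting on an unreplicated array. GIC2, BOI2, BOI1 and CDC42 have nearly the same value on both sides, while GIC1 and BNR1 lie on opposite sides of 0.

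Around the members, 5 lists of other polarity genes were examined, 57 genes of which 56 were tested. None passed an adjusted p of 0.05 in limma, where 0.243% of all genes did, while 4 were higher and 8 lower at an unadjusted p under 0.05, where 7.94% of all genes were higher and 6.58% lower. The groups lay apart for 17 of the 56, or 30.4%, against 20.7% of all genes, with 6 higher and 11 lower in PI3K. Their median log2 difference was -0.025.

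The regulators and kinases of Cdc42 had a median log2 difference of -0.06, with 4 of 11 genes higher. SKM1, a p21-activated kinase with a lipid-binding domain, had the smallest p. It read 8.83, 8.77 and 8.89 in PI3K, against 8.53, 8.51 and 8.25 in KD, with the groups apart (log2 difference 0.40, SE 0.12, limma adjusted p = 0.223). ZDS2, a paralog of the polarity gene ZDS1, was at -0.31 (limma adjusted p = 0.305). Among bud site selection genes 4 of 11 were higher and the median was -0.09. BUD9, a membrane landmark that steers budding in diploid cells, read 7.80, 7.65 and 7.70 in PI3K, against 8.24, 8.04 and 8.43 in KD, with the groups apart (log2 difference -0.52, limma adjusted p = 0.178). BUD3, part of the axial landmark at the neck, was at -0.41 (limma adjusted p = 0.330).

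Partners of the polarisome and the formins had a median of -0.18, with 4 of 12 higher, and held values in both directions. MSB4, a GTPase-activating protein for Rab GTPases that binds Spa2, read 9.61, 9.20 and 9.86 in PI3K, against 8.78, 8.68 and 8.97 in KD. All PI3K arrays were above all KD arrays, with a log2 difference of 0.74 (SE 0.18, limma adjusted p = 0.176). HOF1, which regulates the formins at the bud neck and acts in cytokinesis, was at -0.43 (limma adjusted p = 0.209). The list's median was -0.09 without KD 3, -0.08 without KD 1, -0.09 with the side as a covariate and -0.04 with array weights.

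Proteins of the actin cables that the formins build had a median of 0.08, with 10 of 12 higher. MYO2, the class V myosin that carries vesicles along cables, went against them: it read 11.33, 11.38 and 11.32 in PI3K, against 11.76, 11.69 and 11.64 in KD. Its groups were apart, with a log2 difference of -0.35 (SE 0.10, limma adjusted p = 0.209). SAC6, the actin-bundling fimbrin, was at 0.24 (limma adjusted p = 0.469).

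In the list of G1 genes of the time of bud emergence, when GIC2 is itself transcribed, 5 of 10 were higher, with a median of 0.08. SVS1, a cell wall protein gene, read 12.90, 12.89 and 12.89 in PI3K, against 12.28, 12.29 and 12.43 in KD. Its PI3K arrays were nearly identical and above all KD arrays, with a log2 difference of 0.56 (SE 0.10, limma adjusted p = 0.116). MNN1, a mannosyltransferase gene, was at -0.38 (limma adjusted p = 0.209). The list's median was -0.20 with the side as a covariate, so that it has no settled sign.

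**Figure D5:**
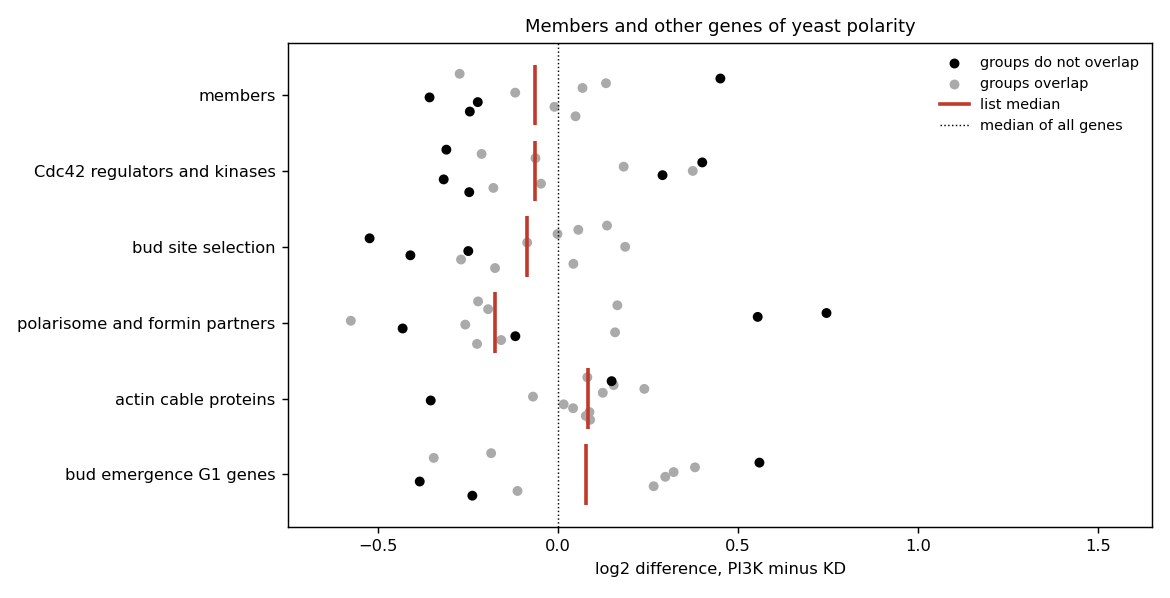
Log2 difference between PI3K and KD for the 10 members and for each tested gene of the 5 other lists, black where the groups do not overlap and grey where they overlap, with the list median in red and the median of all genes dotted. The members run from -0.36 to 0.45, and MSB4 at 0.74 is the largest value shown.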

How the data were processed

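Biotin-labelled total RNA was measured on 1-colour Affymetrix arrays, per the labels' protocols. The authors' deposited values are taken as log2: the submitters' processing notes name GCRMA, which corrects background, normalises between arrays and summarises probes, with no version, and the log base is not given in the sources used here. Scanner signals were not analysed here. Of 5716 probe sets 5498 had 1 gene in the platform annotation, 0 had several and 218 none, and all 5498 gene identifiers matched the R64 reference gene table. A gene was kept where 3 or more of the 6 arrays read 4 or higher, with the highest-mean probe set for each gene. The 2 groups were tested in limma (version 3.58.1, under R 4.3.3) by its two-sided moderated test with no block, and p-values were adjusted by Benjamini and Hochberg's method across 5350 genes. The test had 4 residual and 2.97 prior degrees of freedom. Paralog pairs were compared by exact permutation. The members and lists were chosen with earlier results of these data known. Genes were named by rule: the members, the 2 of smallest p in each list and the 3 nearest to GIC2 and to GIC1. MSB3, KEL1 and KEL2 in the closing observations fall outside it, as do marker genes. For this comparison, data of 5350 genes were simulated with 100 of them shifted. Of these, limma found 73% at a shift of 1 log2 unit and 96% at 2, with 7 false calls at each. With 13 genes called in the data the cutoff was stricter, and members needed from 0.81 (BOI2) to 3.08 (GIC1) log2 units. The simulated shares therefore do not give the power for the members. Alternatives were other filters and normalisations, trend and robust eBayes, weights for arrays, a replicate block, averaged probe sets, the array side and leaving out each array. AIP5 had no named probe set, and 1 further list is not reported here. The number of arrays limits the precision. Figures were drawn with matplotlib 3.10.9.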

Additional observations from a re-analysis of the deposited data

How the results depend on the processing

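No member passed under 14 of 15 alternatives; with array weights, where the weight estimation stopped before convergence and weights ran from 0.154 (KD 3) to 5.75 (KD 2), 6 members passed (GIC1, GIC2, BOI2, BNI1, BNR1 and SPA2), as did 32 of the other polarity genes and 2808 of all genes (52.5%). GIC2 was higher and BOI2, BOI1, BNI1 and SPA2 lower in PI3K under all 15. The filters, trend and robust eBayes, the replicate block and averaged probe sets left each member's log2 difference unchanged. Their signs therefore add nothing, and the share of all genes keeping 1 sign was not counted. GIC2 ranged from 0.38 to 0.67 and BOI2 from -0.38 to -0.30. Of the other polarity genes 1 passed with trend and robust eBayes (SVS1) and 3 with the side as a covariate (BUD9, MSB4 and SVS1). Counts over all genes were 185 with the side as a covariate, 40 with the replicate block and 0 (without KD 2, 476 at an unadjusted limma p under 0.05) to 6 with single arrays left out. Residual correlations between arrays of the same replicate number were -0.49, 0.48 and 0.39 for numbers 1, 2 and 3. They do not settle whether the numbers pair the arrays, and no member passed with the block. Single arrays left out gave -0.062 to 0.53 for GIC2 minus GIC1 and -0.54 to 0.31 for BNI1 minus BNR1, the reversals being without KD 3. Other reversals were CDC42 with quantile normalisation (-0.00822), CDC24 with array weights (0.090), GIC1 with the side (-0.20) and BNR1 with the side (0.26). With single arrays left out BEM1 ran from -0.019 (without KD 1) to 0.10, GIC1 from -0.11 to 0.57 and BNR1 from -0.44 to 0.22, each with both signs. The cause of these was not tested.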

Other observations

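MSB3 and MSB4, paralogs that encode GTPase-activating proteins for Rab GTPases and bind the polarisome, were both higher in PI3K with their groups apart. MSB3, chosen after its values were seen, had a log2 difference of 0.55 (SE 0.18, limma adjusted p = 0.246), beside 0.74 for MSB4. KEL1 and KEL2, paralogs that act with Bud14 on the formin Bnr1, were both lower and also chosen after their values were seen. KEL2 was at -0.58 (SE 0.19, limma adjusted p = 0.254) and KEL1 at -0.26 (SE 0.15, limma adjusted p = 0.501), with overlapping groups for each.

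The strain BY4741 carries deletions at URA3, MET17, LEU2 and HIS3. URA3 read 3.33 to 3.51 in PI3K and 3.11 to 3.22 in KD, and MET17 read 3.57 to 3.95 in PI3K and 3.57 to 4.03 in KD. LEU2 read 12.14 to 12.55 in PI3K and 12.17 to 12.65 in KD, and HIS3 read 11.07 to 11.21 in PI3K and 10.96 to 11.23 in KD. The source of the high LEU2 and HIS3 values was not tested. GAL1, the galactokinase gene that galactose induces, averaged 14.09 in PI3K and 14.11 in KD.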
